A study of Drosophila melanogaster with 6 samples.

Results

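Odorant-binding proteins (OBPs) are small secreted proteins that carry hydrophobic molecules in the fluids of the insect body. In the antenna they fill the lymph around the sensory neurons, where they bind odorants and pheromones on their way to or from the receptors. Other members of the family are made in taste hairs, in the fat body, in glia and in the male reproductive tract, from which several are passed to the female in the seminal fluid. The Drosophila melanogaster genes of this family were followed in males fed methamphetamine (METH), a psychostimulant that raises synaptic dopamine.

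The members were the genes whose symbol begins with Obp and a digit, together with lush, wherever the annotation of the array pairs a probe set (a group of oligonucleotides that interrogates a transcript) with that gene alone. A gene with several such probe sets is represented by the one with the highest mean signal. This gave 48 genes, of 11982 genes measured in all. The RefSeq gene table lists 52 genes of the family. Obp50b, Obp50c and Obp57d lie on probe sets that the annotation pairs with several genes, and no probe set is paired with Obp83a there, so these genes were not analysed here. Of the 48 genes, 26 lie on chromosome arm 2R. The genes sit close together: 31 of the 52 lie within 10000 bases of another Obp gene, in 9 groups, the largest of which holds the 6 genes Obp56a to Obp56f.

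The 3 METH samples were males that ate food containing METH at 0.6% (w/v) for 24 h, and the 3 control samples were males that ate the same food without METH for 24 h. All flies were virgin males of the w1118 strain, a white-eyed laboratory stock, aged 5 days, and both diets were coloured blue. Each sample pooled 20 whole flies, and the study's methods call the 3 samples of a diet biological replicates. In RNA of whole flies, fewer cells of a type and less RNA per cell cannot be told apart.

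Signals were scaled, as in the study's methods, to one actin probe set of the same array, and a level below is a percentage of that actin signal. The scaling matters here. The actin signal was 831.4, 868.4 and 700 on the METH arrays and 1218, 922.3 and 984 on the control arrays. The 4 actin control probe sets together were lower by a mean log2 difference of -0.44 on the METH arrays. The 6 control probe sets of GAPDH and eIF-4a differed by -0.08 and the 9 hybridization controls, spiked in at fixed amounts, by -0.11. Division by actin placed the median of all probe sets 0.24 higher (log2) on the METH arrays, and every difference is therefore also given relative to this median. METH array 3, with the least actin, had the highest level of its diet for 39 of the 48 genes, and control array 1, with the most actin, had the lowest level of its diet for 40. With each array centred on its own median instead, these counts were 31 and 25. Other arrays then stood out as well. METH array 2 had the lowest level of its diet for 34 genes, and control array 3 the highest level of its diet for 31. Arrays of one diet had rank correlations of 0.968 to 0.975 with each other, and arrays of different diets 0.966 to 0.972. Marker genes of organs not known for OBPs were also read. At an adjusted p under 0.05 (limma), 4 of 7 midgut genes were lower in METH-fed males, where 0.416% of all probe sets were. The midgut list had a median of -1.46 relative to all probe sets. Of 10 eye genes listed 4 were measured, and 0 of these 4 passed in either direction (0.842% of all probe sets were higher).

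Most Obp transcripts differed little between METH-fed and control males. At an adjusted p under 0.05 (limma, Benjamini-Hochberg over 18769 probe sets), 0 of 48 Obp genes were higher in METH-fed males, where 0.842% of all probe sets were, and 0 were lower, where 0.416% of all probe sets were. Before adjustment, 3 Obp genes had a p under 0.05 as higher and 3 as lower, against 9.38% and 2.12% of all probe sets. On the signals as deposited these unadjusted counts were 0 and 15, against 335 and 1752 of the 18769 probe sets. With median centring they were 1 and 4 (659 and 794), and after quantile normalization 2 and 9 (717 and 1073). The per-gene test of the study called 0 Obp genes in either direction, both at the p of 0.005 and 1.5-fold change in its array methods (0.922% of all probe sets higher and 0.256% lower) and at the p of 0.008 it used for its pathway analysis (1.25% and 0.33%). The median log2 difference of the family was 0.13, against 0.24 for all probe sets, which places it at -0.11 relative to the median probe set. In all, 17 genes lay above the median probe set and 31 below it. Of the 48 genes, 16 were dim, with a mean signal under the 40th percentile of all probe sets. Among the 32 brighter genes the median was -0.13 relative to all probe sets, and 29 of them lay within 0.5 of the median probe set on the log2 scale. Of these 32, 8 lay above the median probe set and 24 below it. For these 32 genes a log2 difference of 0.7 to 1.68, depending on the gene, was needed to pass the threshold on the actin scale. Smaller differences could not be called on this scale. The limit belongs to the scaling as well as to the number of arrays. On the signals as deposited, Obp18a passed at a log2 difference of -0.52, where 0.81 was needed on the actin scale.

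**Figure D1:**
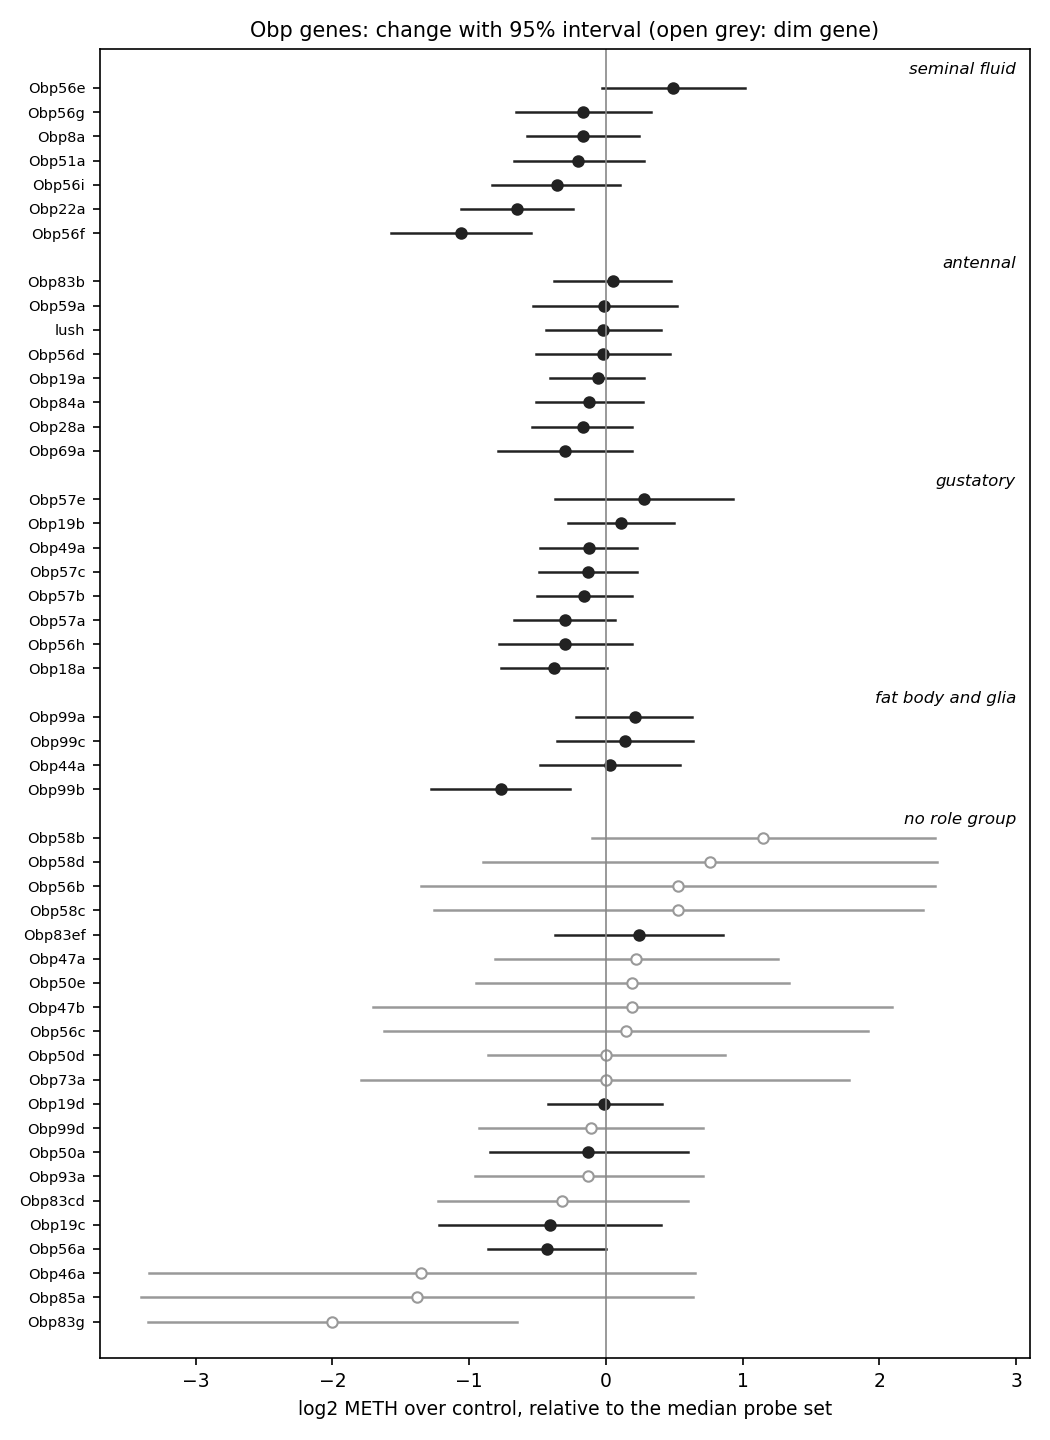
Log2 difference (METH over control, relative to the median probe set, x axis) of each of the 48 Obp genes, grouped by role, with dim genes as open grey points. The line is the 95% interval of the difference on the actin scale, moved by the median of all probe sets. It therefore still holds the spread of the actin signal between arrays. Among genes that are not dim, Obp56f (-1.06) and Obp99b (-0.77) lie farthest below 0 and Obp56e (0.49) lies farthest above it.

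The METH and control arrays did not overlap for 10 Obp genes. Of these, 8 were higher on every METH array (Obp19d, Obp50e, Obp56b, Obp56e, Obp57e, Obp58b, Obp58d and Obp99c), where 15.7% of all probe sets were, and 2 were lower on every METH array (Obp56f and Obp83g), where 2.58% were. The split of these counts follows the scaling. On the signals as deposited, 0 Obp genes were higher without overlap (2.61% of all probe sets) and 23 were lower (13.6%). Median centring gave 3 higher genes (7.33%) and 6 lower ones (5.7%). Obp19d, an antennal and taste-organ gene also known as PBPRP2 that was counted in no role group below, shows this most plainly. Its level was 432, 415 and 457% of actin in METH-fed males and 322, 402 and 388% in control males, without overlap and higher with METH. Its deposited signal was 3588, 3600 and 3200 in METH-fed males and 3916, 3705 and 3821 in control males, again without overlap but lower with METH. Relative to the median probe set its difference was -0.01.

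Only 4 Obp genes passed the adjusted threshold under any of the 7 other scalings, all of them as lower in METH-fed males, and none was higher under any of these scalings. They were Obp56f, Obp99b, Obp22a and Obp18a. All 4 passed on the signals as deposited, where 2.03% of all probe sets were lower and 0.607% higher. Obp56f alone passed with arrays centred on the median (0.9% of all probe sets lower) or on the 75th percentile (1.12%). Obp56f and Obp99b passed after quantile normalization (1.41%), on the hybridization controls (0.826%) and on the GAPDH and eIF-4a controls (0.874%). With all 4 actin probe sets as the reference none passed (0.357%). For calls as higher, of which the family had 0 throughout, the shares of all probe sets were 0.698% with median centring, 0.783% with the 75th percentile, 0.858% after quantile normalization, 0.543% on the hybridization controls, 0.527% on GAPDH and eIF-4a and 0.964% on the 4 actin probe sets.

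**Figure D2:**
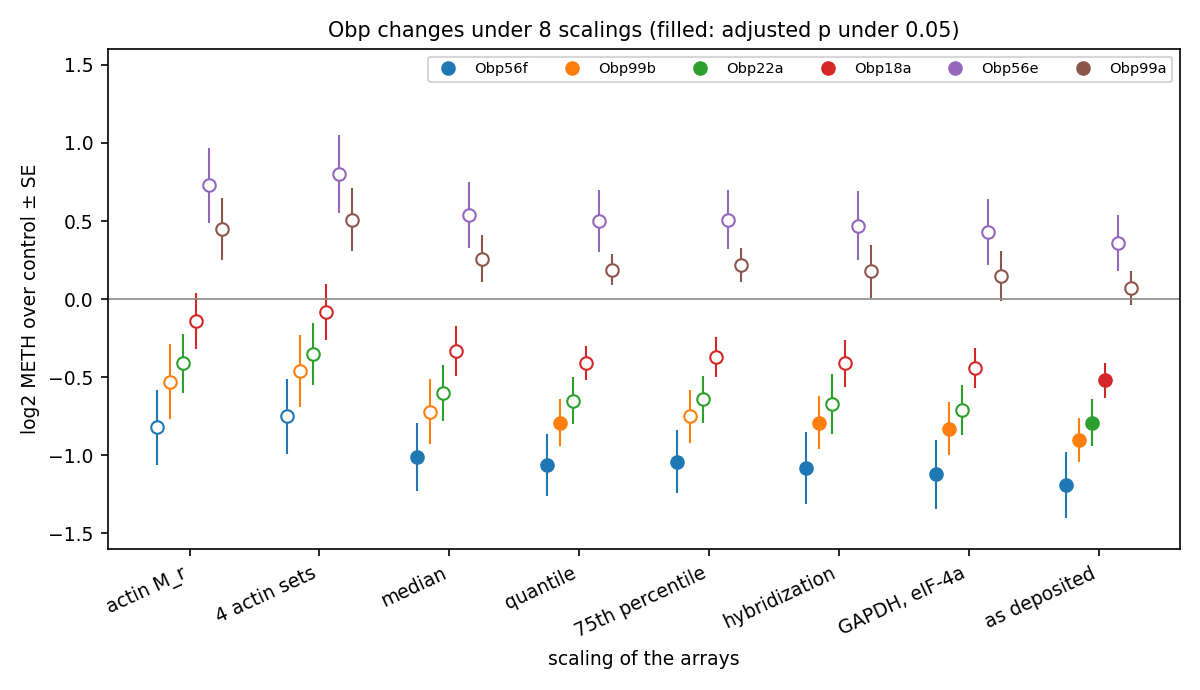
Log2 difference (METH minus control) of Obp56f, Obp99b, Obp22a, Obp18a, Obp56e and Obp99a under the actin scaling and 7 other scalings, with lines of 1 SE and filled points where the adjusted p was under 0.05. Obp56f, Obp99b, Obp22a and Obp18a lay below 0 under every scaling shown, Obp56e and Obp99a above 0, and the size of each difference moved with the scaling.

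The seminal fluid genes held the widest spread among the genes that are not dim. Of the 7 measured, Obp8a, Obp22a, Obp51a, Obp56e, Obp56f, Obp56g and Obp56i, whose proteins are found in the ejaculate, 0 passed the threshold in either direction on the actin scale. Their median was -0.2 relative to all probe sets, with a range of -1.06 to 0.49, and 6 lay below the median probe set. On the signals as deposited, where 13.6% of all probe sets were lower without overlap, 6 of the 7 were lower on every METH array. These counts were not particular to this group. As deposited, 6 of 8 taste-organ, 3 of 8 antennal, 2 of 4 fat body and glia and 6 of the 21 remaining genes were also lower on every METH array. Below the median probe set lay 6, 7, 1 and 10 of them.

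Obp56f was at 24.6, 32 and 52.8% of actin in METH-fed males and at 58.4, 56.1 and 69.5% in control males. Every METH array was below every control array, although METH array 3 came close to control array 2. The difference was -0.82 ± 0.24 (log2, SE, n = 3 a diet, 95% interval -1.33 to -0.31) with an adjusted p of 0.177 (limma), or -1.06 relative to the median probe set. Without METH array 3 it was -1.12, with an adjusted p of 0.0125. As deposited, the signal averaged 284 ± 82.7 in METH-fed males and 637 ± 105 in control males (SD, n = 3 each), a log2 difference of -1.19 ± 0.21 (SE) with an adjusted p of 0.00975 (limma). Under the scalings that called it, the adjusted p ran up to 0.045, with median centring.

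Obp56e, its immediate neighbour on 2R, lay the other way. Its level was 26.4, 23.5 and 40.4% of actin in METH-fed males and 12.8, 22.3 and 19.1% in control males. The diets did not overlap, but METH array 2 and control array 2 lay close together. The log2 difference was 0.73 ± 0.24 (SE, 95% interval 0.21 to 1.26), 0.49 relative to the median probe set, with an adjusted p of 0.283 (limma). On the deposited signals, the diets overlapped, with 219.1, 204.4 and 283.1 in METH-fed males and 156.4, 205.3 and 188.3 in control males.

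Because both genes are read on the same array, the ratio of Obp56e to Obp56f does not depend on any scaling by a constant. On the log2 scale this ratio was 0.1, -0.44 and -0.38 on the METH arrays and -2.18, -1.33 and -1.86 on the control arrays. It averaged -0.24 ± 0.3 with METH and -1.79 ± 0.43 without (SD, n = 3 each), a difference of 1.55 with no overlap. This pair was chosen after the values of its genes were seen, so the ratio is given as a description with no test.

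**Figure D3:**
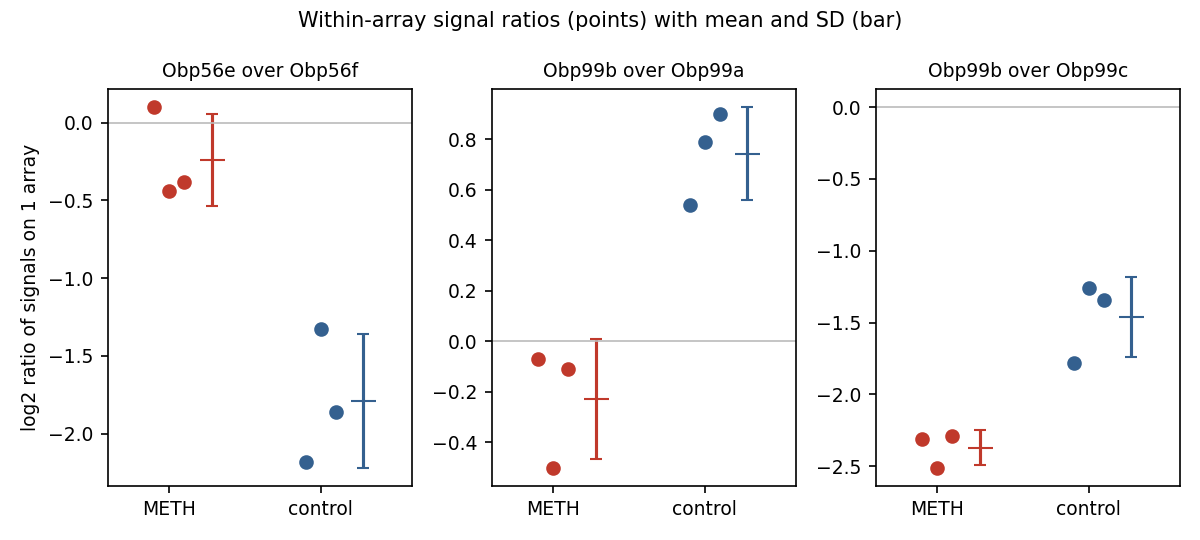
Log2 ratio of the signals of 2 Obp probe sets on the same array, for 3 pairs, with a point per array, METH arrays left of control arrays, and a bar of mean and SD. The axis of each panel has its own range. The ratio Obp56e to Obp56f lay between -0.44 and 0.1 on the METH arrays and between -2.18 and -1.33 on the control arrays, and the ratios of Obp99b to Obp99a and to Obp99c lay lower on all METH arrays.

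Obp22a was at 33.9, 32.1 and 49.4% of actin in METH-fed males and at 44.8, 48.9 and 57.7% in control males, with METH array 3 above control arrays 1 and 2. The log2 difference of -0.41 ± 0.19 (SE) had an adjusted p of 0.435 (limma) and was -0.65 relative to the median probe set. As deposited, its signal was 281.9, 278.8 and 345.4 in METH-fed males and 544.9, 450.7 and 567.9 in control males, all lower with METH, with a difference of -0.79 ± 0.15 (SE) and an adjusted p of 0.0134 (limma). Obp56g and Obp51a lay close to the median probe set. Obp56g, whose protein is needed for the mating plug to form, was at 674, 650 and 866% of actin in METH-fed males and 572, 798 and 714% in control males, a difference of -0.17 relative to the median probe set. Obp51a was at 425, 443 and 590% of actin in METH-fed males and 385, 526 and 500% in control males, or -0.2 relative to the median probe set. The diets overlapped for both. For Obp8a and Obp56i the differences relative to the median probe set were -0.17 and -0.36.

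Marker genes of the organs that make seminal fluid are given beside these genes. Of 12 accessory gland genes measured, 2 were lower in METH-fed males on the actin scale (0.416% of all probe sets) and 0 higher (0.842%). Their median was -0.48 relative to all probe sets, with a range of -3.26 to 0.08. Their summed deposited signal was 22670 to 27030 on the METH arrays and 34370 to 36540 on the control arrays. On the deposited signals the median log2 difference of all probe sets was -0.13. Acp76A, a serpin of the seminal fluid, was at 3.03, 5.35 and 6.5% of actin in METH-fed males and at 38.4, 51.6 and 28.2% in control males. Its log2 difference was -3.02, with an adjusted p of 6.73e-05 (limma). Acp26Aa, the ovulation-stimulating ovulin, was at 32.5, 50.4 and 32.7% of actin in METH-fed males and at 91.6, 160 and 92% in control males, a log2 difference of -1.55 with an adjusted p of 0.00303 (limma). On the deposited signals, 6 of the 12 were lower, where 2.03% of all probe sets were. Of 5 ejaculatory bulb and duct genes, 0 passed on the actin scale (median -0.16 relative to all probe sets, range -0.88 to -0.01). Their summed deposited signal was 23840 to 26950 on the METH arrays and 29470 to 30780 on the control arrays. On the deposited signals 1 of the 5 was lower (2.03% of all probe sets), as with median centring (0.9%), and 0 were higher (0.607% and 0.698%). The lowest on the actin scale, Gld, was at 39.3, 49.7 and 54.5% of actin in METH-fed males and 73.1, 71.5 and 76.3% in control males (adjusted p = 0.113, limma). Genes of the testis, the neighbouring organ, had a median of 0.16 relative to all probe sets, with 0 of 9 past the threshold. Their summed deposited signal overlapped, at 13920 to 16970 on the METH arrays and 14130 to 15730 on the control arrays. None of these marker genes was dim. The part of these tissues in the Obp values was not tested.

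Obp99a, Obp99b, Obp99c and Obp44a are Minus-C OBPs, a subfamily that lacks a conserved pair of cysteines, and are made in fat body, glia and other non-sensory tissue. On the actin scale 0 of the 4 passed the threshold, with a median of 0.08 relative to all probe sets and a range of -0.77 to 0.21. Obp99b stood below the other 3. This gene, also known as turn on sex-specificity (tsx), is expressed in the fat tissue around the brain. Its level was 171, 146 and 234% of actin in METH-fed males and 186, 323 and 290% in control males. METH array 3 lay above control array 1, so the diets overlapped. The log2 difference was -0.53 ± 0.24 (SE, 95% interval -1.04 to -0.02), with an adjusted p of 0.432 (limma), and -0.77 relative to the median probe set. On the signals as deposited there was no overlap, with 1424, 1266 and 1635 in METH-fed males and 2270, 2977 and 2857 in control males. That difference was -0.9 ± 0.14 (SE) with an adjusted p of 0.00361 (limma), and under the other scalings that called it the adjusted p was 0.0224 to 0.0378.

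Obp99a, also on 3R, was at 180, 206 and 253% of actin in METH-fed males and at 128, 186 and 155% in control males. The diets overlapped, and the log2 difference was 0.45 ± 0.2 (SE) with an adjusted p of 0.426 (limma), or 0.21 relative to the median probe set. Obp99c was at 851, 828 and 1140% of actin in METH-fed males and at 642, 775 and 733% in control males. That is higher without overlap on the actin scale (0.38 ± 0.23, SE, adjusted p = 0.481, limma), while its deposited signals overlapped, at 7076, 7189 and 8010 with METH and 7812, 7145 and 7216 without. Obp44a, a fatty acid carrier of glia, was at 861, 727 and 1030% of actin in METH-fed males and at 603, 829 and 735% in control males, or 0.03 relative to the median probe set. Both of these lie near the top of the signal range of the arrays, where the highest deposited signals were 10246 to 10770, and whether the signals of bright probe sets were compressed there was not tested.

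The log2 ratio of Obp99b to Obp99a was -0.07, -0.5 and -0.11 on the METH arrays and 0.54, 0.79 and 0.9 on the control arrays, a difference of -0.97. That of Obp99b to Obp99c was -2.31, -2.51 and -2.29 on the METH arrays and -1.78, -1.26 and -1.34 on the control arrays, a difference of -0.91. Neither of these overlapped between diets. The ratio of Obp99b to its dim neighbour Obp99d did, at 6.33, 6.06 and 6.41 on the METH arrays and 6.22, 7.68 and 6.88 on the control arrays. These too were chosen after their genes' values were seen and carry no test.

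**Figure D4:**
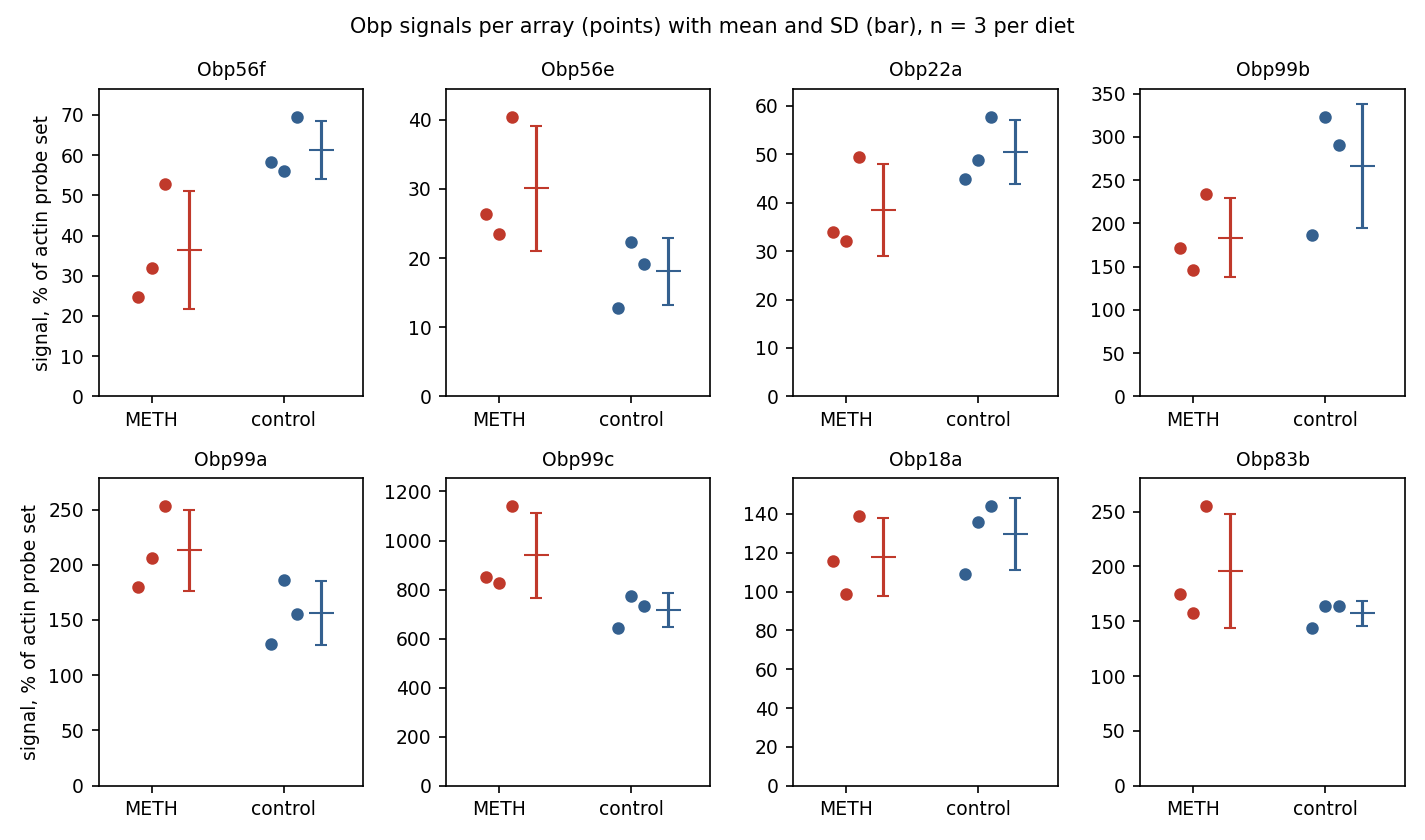
Level on each array (points), as a percentage of the actin signal, of 8 Obp genes, with METH arrays left of control arrays, a bar of mean and SD, and each panel's axis starting at 0. Obp56f separated the diets downwards and Obp56e upwards, while Obp22a, Obp99b, Obp99a, Obp18a and Obp83b overlapped on this scale and Obp99c was higher on all METH arrays.

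Fat body and glia markers are given beside these genes. Of 7 fat body genes measured, 1 was lower in METH-fed males, where 0.416% of all probe sets were. It was Lsd-1, a perilipin of the lipid droplet, at 102, 81.2 and 105% of actin in METH-fed males and 187, 232 and 238% in control males (log2 difference -1.19, adjusted p = 0.00242, limma). The median of the list was -0.06 relative to all probe sets, from -1.43 to 0.45. Its summed deposited signal was 8473 to 9817 on the METH arrays and 11470 to 12810 on the control arrays. Most of that gap came from Lsd-1 (deposited mean 763 with METH and 2250 without) and FASN1 (4200 and 5760). Apoltp lay the other way, at 150, 167 and 189% of actin in METH-fed males and 97.3, 124 and 93.6% in control males. It was higher without overlap (15.7% of all probe sets), with a log2 difference of 0.69 and an adjusted p of 0.106 (limma). The larval fat body gene Fbp1 was near 0 on every array. Of 5 glial genes, among them repo, the defining transcription factor of glia, 0 passed, with a median of -0.19 relative to all probe sets. On the actin scale itself that median was 0.06. The largest deposited signal among these genes was that of Gs2, at a mean of 2800 with METH and 3480 without. Their summed deposited signals were 3157 to 3984 with METH and 4428 to 4946 without. Their part in the Obp values was not tested.

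Of 8 taste-organ genes measured (Obp18a, Obp19b, Obp49a, Obp56h, Obp57a, Obp57b, Obp57c and Obp57e), 0 passed the threshold on the actin scale, and the median was -0.14 relative to all probe sets, with a range of -0.38 to 0.28. Obp18a was at 116, 98.8 and 139% of actin in METH-fed males and at 109, 136 and 144% in control males. These overlapped, and the log2 difference was -0.14 ± 0.18 (SE), with an adjusted p of 0.721 (limma). On the signals as deposited, at 967.2, 858.1 and 970.1 in METH-fed males and 1326, 1258 and 1416 in control males, there was no overlap (-0.52 ± 0.11, SE, adjusted p = 0.0288, limma). Obp57e, which shapes the choice of egg-laying site among Drosophila species, was higher without overlap on the actin scale, at 4.47, 3.55 and 4.71% in METH-fed males and 2.76, 2.94 and 3.11% in control males (adjusted p = 0.468, limma). Its deposited signals overlapped between the diets. Obp49a, which binds bitter compounds and damps the response of sweet-sensing neurons to sugar, was at 75.5 ± 2.07% of actin in METH-fed males and 69.8 ± 11.7% in control males (SD, n = 3 each). Obp56h, a gene of male courtship in which reduced expression alters the cuticular hydrocarbons, was at 10.5 ± 1.04% of actin in METH-fed males and 11.1 ± 2.81% in control males. Obp57a, Obp57b and Obp57c, which follow each other on 2R, lay at -0.3, -0.16 and -0.13 relative to the median probe set.

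The antennal genes had the narrowest range of the role groups. Of 8 measured (lush, Obp19a, Obp28a, Obp56d, Obp59a, Obp69a, Obp83b and Obp84a), 0 passed the threshold, the median was -0.04 relative to all probe sets and the range was -0.3 to 0.05. The pheromone-binding gene lush, needed for the response to the male pheromone cis-vaccenyl acetate, was at 21.9, 17.7 and 24.9% of actin in METH-fed males and 15.4, 18.3 and 21.5% in control males. The diets overlapped, and the log2 difference of 0.22 had a 95% interval of -0.2 to 0.64, with an adjusted p of 0.596 (limma). Obp56d, the brightest probe set of this group, was at 462, 434 and 632% of actin in METH-fed males and at 344, 505 and 463% in control males, or -0.02 relative to the median probe set. Obp28a, a highly abundant antennal OBP, was at 64.4 ± 11.5% of actin in METH-fed males and 60.6 ± 4.25% in control males (SD, n = 3 each). Obp69a, which has been tied to the effect of cis-vaccenyl acetate on male aggression and female receptivity, lay at -0.3 relative to the median probe set, with 58.6, 74.7 and 99.9% of actin in METH-fed males and 58.9, 85.9 and 97.7% in control males. Obp59a, which takes part in humidity sensing, lay at -0.01 and Obp83b, an OBP of antennal trichoid hairs, at 0.05. Of 7 antenna marker genes 4 were dim and 0 passed. Their median was 0.07 relative to all probe sets, and their summed deposited signal was 929.4 to 1125 on the METH arrays and 1198 to 1351 on the control arrays. Most of this sum was the signal of a10, at a mean of 754 with METH and 914 without. The genes that were not dim, a10, Snmp1 and Orco, lay at -0.14, -0.67 and 0.07 relative to the median probe set, so the sum does not describe the list.

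The remaining 21 genes held all 16 dim ones, and with them the widest spread of the whole family, from -2 to 1.15 relative to the median probe set. Obp83g was at 0.257, 1.42 and 0.486% of actin in METH-fed males and 2.17, 1.97 and 1.61% in control males. Every METH array was lower, but the deposited signals were 2.14, 12.29 and 3.404 with METH and 26.47, 18.18 and 15.83 without. The log2 difference of -1.76 ± 0.62 (SE) had an adjusted p of 0.337 (limma). Obp58b was at 0.785, 1.15 and 1.55% of actin in METH-fed males and 0.548, 0.393 and 0.36% in control males. Its log2 difference of 1.39 ± 0.58 (SE) had an adjusted p of 0.422 (limma). To pass the threshold, a log2 difference of 2.79 was needed for Obp83g and of 2.59 for Obp58b. Obp58d (0.31, 0.346 and 0.305% of actin with METH, 0.128, 0.145 and 0.219% without), Obp56b (0.187, 0.173 and 0.216% with METH, 0.0677, 0.128 and 0.161% without) and Obp50e (0.88, 0.89 and 1.04% with METH, 0.569, 0.688 and 0.843% without) were also dim and higher without overlap. None of the 3 had an adjusted p below 0.549 (limma). Apart from Obp19d, the brighter genes of this group were Obp19c, Obp50a, Obp56a and Obp83ef, at -0.41, -0.13, -0.43 and 0.24 relative to the median probe set.

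By sequence class the dim signals gathered in the Plus-C subfamily, which carries extra cysteines. Of 11 Plus-C genes measured 9 were dim, and their median lay at 0 relative to all probe sets. The 7 Minus-C genes had a median of -0.11. Obp83cd and Obp83ef, each of which joins 2 OBP domains in a single protein, lay at -0.32 and 0.24.

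Groups of neighbouring genes differed in how their members lay, and most of these differences were smaller than their SE or came from dim genes. In the Obp56a to Obp56f group the differences relative to the median probe set were -0.43, 0.53, 0.15, -0.02, 0.49 and -1.06, of which Obp56b and Obp56c are dim. In the group Obp19a to Obp19d they were -0.06, 0.11, -0.41 and -0.01. Obp57a, Obp57b and Obp57c all lay below the median probe set, as did Obp99b at -0.77 and its dim neighbour Obp99d at -0.11. The dim Obp58b, Obp58c and Obp58d all lay above it, at 1.15, 0.53 and 0.76, beside Obp59a at -0.01. Obp83cd, Obp83ef and Obp83g lay at -0.32, 0.24 and -2, and Obp50a, Obp50d and Obp50e at -0.13, 0 and 0.19. Whether neighbours move together was not tested.

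Receptors that act with the OBPs were mostly dim in these whole-fly samples. Of 57 odorant receptor genes 56 were dim, as were all 56 gustatory receptor genes and 50 of 53 ionotropic receptor genes. On the actin scale 0 of each list passed the threshold in either direction. On the signals as deposited 1 of the 57 odorant receptor genes was lower, where 2.03% of all probe sets were. Another 18 genes were listed as acting around the receptors, such as the sensory neuron membrane proteins and the CheA and CheB families. The list also holds EbpIII, which is counted among the ejaculatory bulb and duct genes above too. Its members Snmp1 and a10 are also antenna markers above. Of the 18, 0 were higher (0.842% of all probe sets) and 1 was lower (0.416%). It was Phk-3, a chemosensory protein, another family of small soluble carriers, at 15.8, 14.9 and 18.8% of actin in METH-fed males and 36.8, 54.4 and 46.3% in control males. The diets did not overlap. The log2 difference was -1.46 ± 0.19 (SE, adjusted p = 0.000734, limma), beyond that of any Obp gene that is not dim. Snmp1, the membrane protein that works with lush in pheromone detection, was at 12.3, 12.3 and 11.4% of actin in METH-fed males and 11, 20.1 and 19% in control males (adjusted p = 0.453, limma). Relative to the median probe set it lay at -0.67. Its deposited signal was lower without overlap, as for 13.6% of all probe sets. It was 102.3, 106.6 and 79.57 with METH and 134.3, 185 and 186.9 without.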

How the data were processed

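Total RNA of whole males was read on 1 oligonucleotide array (Affymetrix Drosophila Genome 2.0) per sample. The authors computed the values in GCOS 1.4, and the deposited table holds linear signal intensities. A common scaling target is not given in the sources used here. After log2 transformation, each array's value for the actin control AFFX-Dros-ACTIN_M_r was subtracted, following the study's methods. All 18769 probe sets other than the 183 AFFX ones were tested, dim ones included, with limma 3.58.1 in R 4.3.3 (lmFit, eBayes with trend, two-sided, Benjamini-Hochberg). Precision is limited by the number of arrays. With 3 arrays against 3, the smallest p of an exact permutation test would be 0.1. Symbols come from the platform annotation, updated by gene identifier for 13544 probe sets. Neighbours and synonyms come from the RefSeq table of assembly Release 6, and role and sequence classes from general knowledge. The rule let every Obp gene be named, with values per array for those past a threshold under any scaling, without overlap, or among the 5 brightest, and up to 4 genes from other lists. The 23 genes without overlap on the deposited signals are mostly given as a count. Further Obp genes were picked as examples after their values were seen. The members, lists and rules were chosen with earlier results of these data known, and scalings to the hybridization, GAPDH and eIF-4a, and 4 actin controls were added after seeing the data. The limma step was tested on simulated data. SAM was not run. The plots were made in matplotlib 3.10.9 (Python 3.11.15).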

Additional observations from a re-analysis of the deposited data

How the results depend on the processing

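The absence of Obp calls on the actin scale depended on the scaling. The number of Obp genes lower in METH-fed males was 4 on the signals as deposited, 1 with arrays centred on the median or on the 75th percentile, and 2 after quantile normalization, on the hybridization controls and on GAPDH and eIF-4a. Leaving out 1 array at a time it was 0 to 1, the 1 being Obp56f without METH replicate 3. The arrays do not settle whether the replicate numbers pair the samples. Correlations of deviations between same-numbered arrays were 0.02, 0.04 and 0.06. METH arrays 2 and 3 correlated best with the same-numbered control array, and METH array 1 with control array 2. Values this close to 0 cannot decide the question, and the main fit used no pairing. With the replicate block, 1 Obp gene was higher (Obp56e, adjusted p = 0.00313, limma) and 1 lower (Obp56f, adjusted p = 0.000194), and calls among all probe sets moved to 1033 higher and 260 lower, against 158 and 78.

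Calls as higher among all probe sets were 102 on the hybridization controls, 99 on GAPDH and eIF-4a, 17 without the trend of the spread, 2 with the methods' test after Benjamini-Hochberg adjustment and 103 to 143 with 1 array left out. Calls as lower were 381 as deposited, 169 with median centring, 211 with the 75th percentile, 264 after quantile normalization, 155 on the hybridization controls, 164 on GAPDH and eIF-4a, 7 without the trend, 48 with the methods' test at a p of 0.005 (added after seeing the data) and 0 with it after adjustment (280 at an unadjusted p under 0.05). The median Obp difference was -0.25 as deposited, -0.14 on the hybridization controls and -0.17 on GAPDH and eIF-4a, against 0.13 on the actin scale.

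Of 48 Obp genes, 21 had the opposite sign as deposited. Values relative to the median probe set cannot change under scaling by a constant per array. Among the alternatives that can change them, 2 genes changed sign after quantile normalization, 7 with low values floored and 2 to 7 with 1 array left out, none of them called. Obp19c changed sign with the mean of its probe sets, and Obp56b and Obp58d with low values floored. Phk-3 was not called as lower without the trend or by the methods' test after adjustment. Signals of 16 of the 48 genes were dim.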
